A study of Mus musculus with 18 samples.

Results

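Levels of 10 genes of insulin-like growth factor (IGF), AKT, mTOR and FoxO signaling were followed in the mouse whisker pad after facial nerve transection, out of 35150 genes in the data set. The genes were listed by name as parts of the pathway, with no threshold on their values but with earlier results of these data known. They were the ligand Igf1, the kinases Akt1 and Akt2, and the mTOR kinase gene Mtor with Rptor and Rictor. The outputs Rps6kb1 and Eif4ebp1 and the transcription factors Foxo1 and Foxo3 completed the list. For each gene the TPM of all its Ensembl transcripts (transcript levels scaled for length and depth) were summed, and all 10 genes passed the filter on low values at every day. Adult mice of both sexes and several months of age were used, with 3 mice at each of days 1, 3, and 7 after the lesion, and each mouse gave 1 denervated and 1 sham sample, 18 samples in all. On the right, the facial nerve was cut at its superior marginal and buccal branches. On the left, the sham side, skin was opened and closed again over an intact nerve. The strain of these mice was not given in the sources used here. No allele was named for them, and no drug other than isoflurane for anesthesia. The side of the face cannot be told apart from the lesion.

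Insulin-like growth factor 1 binds a receptor tyrosine kinase that activates AKT through the lipid kinase PI3K. AKT releases mTOR complex 1, which contains raptor and drives protein synthesis through S6 kinase and the 4E-BP proteins, while mTOR complex 2, which contains rictor, phosphorylates AKT in turn. AKT also keeps FoxO factors out of the nucleus, and in skeletal muscle active FoxO factors switch on genes of protein breakdown, so that the pathway is a classic subject in growth and atrophy of muscle.

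The biopsies held skin and muscle, and transcripts of both were measured. All 10 muscle fiber markers were found, none of them at 0 in any group, and their summed level ran from 4694 to 27860.3 TPM per sample. Day 1 mouse 1 stood apart with the lowest muscle sums on both sides, 4694 TPM on the sham side and 6689 TPM on the denervated side, where the other 4 samples of day 1 held 14014.6 to 23874 TPM. All 6 keratinocyte markers were found at a sum of 4452 to 9352 TPM per sample. In such mixed tissue, fewer cells of a type and less RNA per cell cannot be told apart. Depth was estimated at 10700000 to 32600000 reads per sample from the smallest steps in the values, which gave each of the 10 genes at least 345 estimated reads in every sample. These figures describe counting error only.

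Akt2 and Mtor differed most between the sides of a mouse, and Akt2 was the only one of the 10 genes that passed the test at a single day. Each day was tested with limma on log2(TPM + 0.5), with Benjamini-Hochberg adjustment of p over all genes and a threshold of 0.05. Because the list was chosen with earlier results of these data known, the shares of all genes, here and below, serve as description only. None of the 10 genes passed at day 1 (0 of 10, and 0% of 14776 genes tested). Before adjustment, 4.29% of all genes were under 0.05 there, and Foxo1 was the 1 member among them. At day 3, 1 of 10 passed (Akt2, higher) against 1.45% of all genes tested and 1.01% that were higher. At day 7, again 1 of 10 passed (Akt2, higher) against 1.53% of all genes and 1.01% that were higher. Over all 18 samples with a term for the day, 3 of 10 passed (Akt2, Mtor and Foxo1, all higher on the denervated side) against 3.1% of all genes and 1.92% that were higher. The median difference of the 10 genes on the log2 scale went from 0.14 (day 1) to 0.10 (day 3) and 0.20 (day 7), where the medians over all genes were 0.0070, -0.015, and 0.039.

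**Figure D1:**
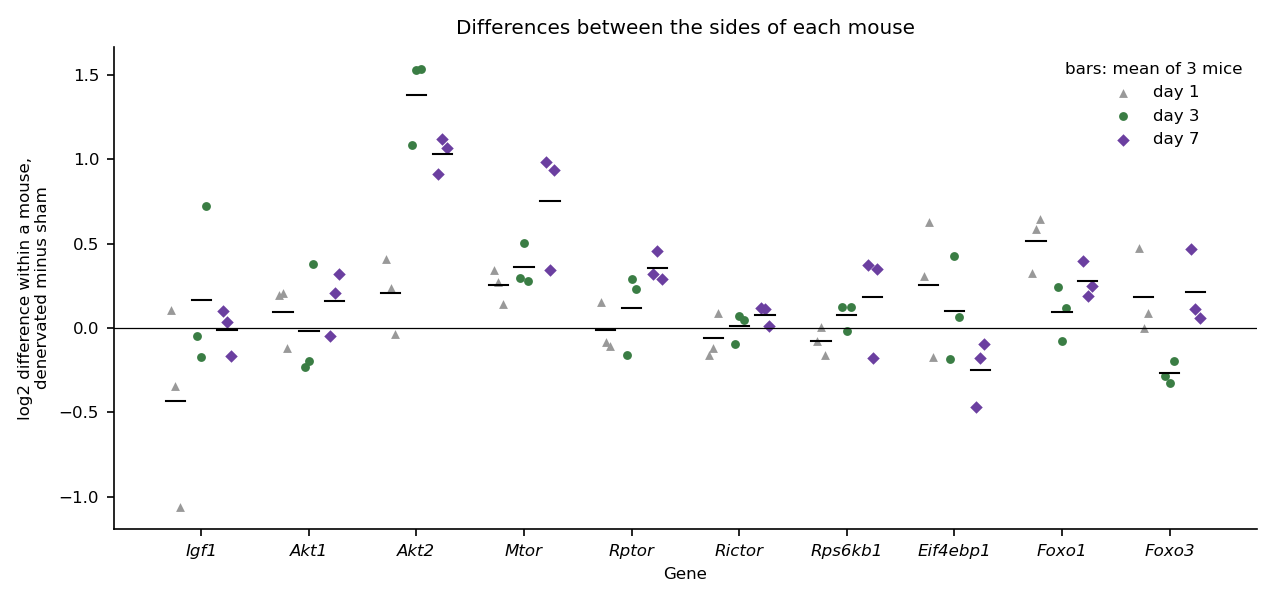
Differences between the denervated and the sham side of each mouse, as log2(TPM + 0.5), for the 10 genes. Each point is 1 mouse, short bars are means of 3 mice, and colors give the day. Akt2 points lie above those of all other genes at days 3 and 7, save that 2 Mtor points of day 7 exceed the lowest Akt2 point of that day, and the 9 Mtor points are all above 0.

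A test by mouse gave a similar picture for the same genes. In an exact two-sided sign-flip permutation test of the 9 within-mouse differences, where the smallest possible p is 0.00391, 3 of 10 genes had an unadjusted p under 0.05, all of them higher, against 16.2% of all genes in either direction and 9.9% that were higher. Mtor was higher on the denervated side in 9 of 9 mice (mean log2 difference 0.46 ± 0.30 SD, exact permutation p = 0.00391), a count that 1.94% of all genes reached. Akt2 (0.87 ± 0.55) and Foxo1 (0.30 ± 0.22) were each higher in 8 of 9 (exact permutation p = 0.00781 for both). Rptor was higher in 6 of 9 mice (exact permutation p = 0.0742), and the other 6 genes had p values of at least 0.324.

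Igf1 (chr10:87858265-87937042 on the plus strand; positions here and below are of whole genes with exons and introns, in GRCm38), the circulating and local growth factor at the head of the pathway, showed no difference between the sides that passed the test at any day, but its level was lower in the samples of day 1 than in those of later days. On the sham side it was 9.39, 12.2, and 13.6 TPM at day 1, 22.3, 31.9, and 16.1 TPM at day 3, and 20.5, 17.02, and 25.3 TPM at day 7 (mice 1 to 3 of each day). On the denervated side it was 10.2, 9.49, and 6.23 TPM at day 1, 21.5, 28.2, and 26.9 TPM at day 3, and 21.97, 17.4, and 22.5 TPM at day 7. The sides overlapped at every day, whereas no sample of day 1 reached any sample of day 3 or 7. The days are of different mice, and the share of all genes with such a separation of days was not counted. Between the sides, the log2 difference was -0.43 at day 1 (adjusted p = 0.999, limma), 0.17 at day 3 (0.829), and -0.01 at day 7 (0.989). In a comparison of days added after the data were seen, Igf1 rose on the denervated side 2.89-fold from day 1 to day 3 (limma, adjusted p = 0.00186, 3 against 3 mice) and was 2.35-fold above day 1 at day 7 (adjusted p = 0.00347), where 7.31% and 12.8% of all genes passed as higher. On the sham side the corresponding folds were 1.91 (adjusted p = 0.129) and 1.75 (adjusted p = 0.101), with 0% and 0.976% of all genes past the test, and the differences between the sides in these rises did not pass (limma interaction, adjusted p = 0.647 and 0.846). Markers of several cell types also moved with the day. The median summed level over the 6 samples of a day was 112, 229.7, and 355 TPM at days 1, 3, and 7 for 7 leukocyte markers, 757, 1241, and 1247 TPM for 5 fibroblast markers, and 215, 455, and 486 TPM for 3 adipocyte markers. The muscle sum had medians of 14565, 18203, and 25914 TPM. Their part in the level of Igf1 was not tested.

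Akt2 (chr7:27591552-27640826, plus strand) encodes the AKT isoform known for insulin signaling in muscle and fat, and it was the member with the clearest difference. On the sham side it was 40.3, 55.1, and 66.98 TPM at day 1, 66.2, 72.5, and 77.3 TPM at day 3, and 92.1, 70.4, and 67.1 TPM at day 7. On the denervated side it was 53.8, 65.1, and 65.3 TPM at day 1, 141, 209.9, and 225 TPM at day 3, and 174, 154, and 141 TPM at day 7. The sides overlapped at day 1, and at days 3 and 7 every denervated sample was above every sham sample, as was the case for 11.7% and 10.6% of all genes. Akt2 rose 2.61-fold at day 3 (log2 difference 1.38 ± 0.19 SE, limma, adjusted p = 0.0246) and 2.04-fold at day 7 (1.03 ± 0.16, limma, adjusted p = 0.0301), in 3 of 3 mice at each day. At day 1 the fold was 1.15 (adjusted p = 0.999, 2 of 3 mice higher), and over all days it was 1.83 (adjusted p = 0.00563). Among the denervated samples alone, Akt2 was 3.06-fold higher at day 3 and 2.53-fold higher at day 7 than at day 1 (limma, adjusted p = 0.000297 and 0.000700).

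These calls did not hold in every fit that left out a mouse. Without mouse 2 or mouse 3 of day 3, the Akt2 fits of 4 samples gave log2 differences of 1.31 and 1.31 with adjusted p values of 0.376 and 0.232, and without mouse 1 it passed (0.0203). At day 7, leaving out mouse 1, 2 or 3 gave differences of 1.09, 0.99, and 1.02 with adjusted p values of 0.186, 0.416, and 0.110. The difference of Akt2 at day 3 exceeded that at day 1 by 1.18 on the log2 scale. This interaction missed the threshold in the fit of 18 samples (limma, adjusted p = 0.128, 0.122% of all genes passed). It passed with the mouse as a block (adjusted p = 0.0276, where 68 of 14757 genes passed) or without day 1 mouse 1 (adjusted p = 0.0475). Between day 7 and day 1 it was 0.83 (adjusted p = 0.480; 0.142 with the block; 0.163% of all genes passed).

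Markers of muscle cells were measured beside Akt2. The muscle fiber sum was 16673 to 19008 TPM on the sham side and 16157 to 21492 TPM on the denervated side at day 3. There 0 of 10 markers passed the test. The mean log2 difference over markers was -0.22 ± 0.26 (SD, 3 mice, 0 of 3 higher), and the median over markers was -0.043. At day 7 the sums were 24279 to 27860.3 TPM and 23821 to 27769 TPM, with a mean log2 difference over markers of -0.049 ± 0.32 (SD, 3 mice, 1 of 3 higher) and a median over markers of 0.11. Of the 10 markers, 1 passed, lower: Ckm, the muscle creatine kinase (log2 difference -1.12, adjusted p = 0.0100). Scaled to the muscle markers, the Akt2 differences were 1.60 at day 3 (adjusted p = 0.00151) and 1.08 at day 7 (adjusted p = 0.0491), and over all days the difference was 1.01 and no longer passed (adjusted p = 0.0584). Satellite cell markers, at a sum of 2.72 to 3.23 TPM on the sham side and 10.1 to 17.99 TPM on the denervated side at day 3, also moved. Of these 3 genes only Cdh15 was expressed above the filter, and it was higher at day 3 (2.24, adjusted p = 0.0117). Pax7, the defining marker, stayed at 0.0463 to 0.285 TPM in all samples and Myf5 at 0.273 to 1.53 TPM. At day 7, 5 marker lists were higher on the denervated side in 3 of 3 mice, by mean log2 differences of 0.65 for leukocyte, 0.47 for satellite cell, 0.44 for keratinocyte, 0.33 for fibroblast, and 0.25 for adipocyte markers. The leukocyte sums were 147 to 426 TPM on the sham side and 285 to 639 TPM on the denervated side, with 0 of 7 markers past the test. At day 3 the satellite cell list was higher in 3 of 3 mice, and the keratinocyte and hair follicle lists were higher in 0 of 3. The part of these cells in the Akt2 difference was not tested.

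Akt1 (chr12:112653821-112674884, minus strand), the most widely expressed AKT isoform, did not pass the test at any day. It was 49.9, 50.5, and 60.1 TPM on the sham side and 57.2, 58.4, and 55.4 TPM on the denervated side at day 1, and 70.3, 72.6, and 64.8 TPM against 59.8, 63.4, and 84.2 TPM at day 3. The day 7 values were 61.3, 50.7, and 43.2 TPM on the sham side and 59.3, 58.5, and 54.0 TPM on the denervated side. The sides overlapped at all 3 days, with folds of 1.07, 0.988, and 1.12 and adjusted p values of 0.999, 0.977, and 0.729. Within a sample, the ratio of Akt1 to Akt2 does not depend on the scaling between samples. On the sham side it was 1.24, 0.916, and 0.898 at day 1, 1.06, 1.00, and 0.838 at day 3, and 0.666, 0.719, and 0.643 at day 7. On the denervated side it was 1.06, 0.896, and 0.849 at day 1, 0.424, 0.302, and 0.374 at day 3, and 0.341, 0.381, and 0.384 at day 7. Akt1 was thus near the level of Akt2 in sham samples of days 1 and 3 and well under it in denervated samples of days 3 and 7. The ratio was lower on the denervated side in 9 of 9 mice, by 0.79 ± 0.59 (SD) on the log2 scale (exact two-sided sign-flip permutation test, p = 0.00391, the smallest possible with 9 mice). The mean difference was -0.11 at day 1, -1.40 at day 3, and -0.87 at day 7.

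Most of the Akt2 signal was assigned to 1 transcript. Of Akt2, 12 of the 14 annotated transcripts had a value above 0. The coding transcript Akt2-201 starts at 27605858 and held 81.4% to 87.3% of the gene sum per sample, with means of 85.0% on the sham side and 84.4% on the denervated side (difference -0.59 ± 2.43 percentage points, exact sign-flip permutation test, p = 0.50, n = 9 mice). It rose with the gene, from group means of 61.6 and 64.4 TPM on the sham side at days 3 and 7 to 162 and 133 TPM on the denervated side. The longer coding transcript Akt2-205, which starts upstream at 27591552, was 4.87, 5.89, and 4.69 TPM on the sham side and 13.7, 13.5, and 14.3 TPM on the denervated side at day 3. Its day 7 values were 7.59, 5.47, and 4.95 TPM on the sham side and 6.93, 7.65, and 7.28 TPM on the denervated side. The sides were apart at day 3 and overlapped at day 7, while those of Akt2-201, like those of the gene sum, were apart at both days. The share of all transcripts with sides apart was not counted. Transcript values are Kallisto's division of shared reads, and these transcripts were described after their values were seen, with no test.

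**Figure D2:**
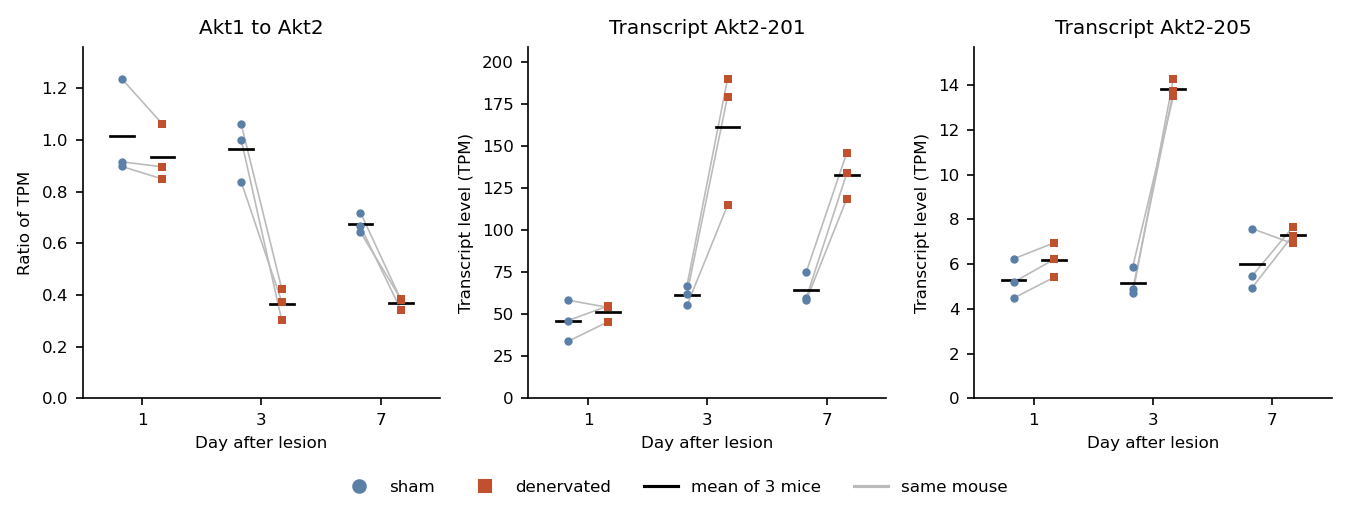
Ratio of Akt1 to Akt2 TPM in each sample (left) and TPM of the transcripts Akt2-201 (middle) and Akt2-205 (right), by day after lesion. Points are samples, gray lines join the sides of a mouse and bars are means of 3 mice; the ratio is 0.302 to 0.424 in denervated samples of days 3 and 7 and 0.643 to 1.24 in sham samples.

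The 250 bases upstream of the start sites of these 2 Akt2 transcripts, and of Mtor, are shown because these genes differed most between the sides (RefSeq, GRCm38.p6, plus strand, 5′ to 3′). Capitals mark matches to CANNTG on either strand, the E-box letters that the myogenic factors bind; the FoxO letters GTAAACA were also searched on both strands and are in none of them. The upstream start is at 27591552, and the RefSeq start nearest to Akt2-201 is at 27605797.
Akt2 upstream start, chr7:27591302-27591551: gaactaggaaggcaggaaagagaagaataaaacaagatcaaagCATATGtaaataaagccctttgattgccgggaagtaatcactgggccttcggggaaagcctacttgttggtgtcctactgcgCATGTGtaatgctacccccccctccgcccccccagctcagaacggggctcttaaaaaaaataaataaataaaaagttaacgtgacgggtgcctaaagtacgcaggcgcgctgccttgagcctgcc
Akt2 start near Akt2-201, chr7:27605547-27605796: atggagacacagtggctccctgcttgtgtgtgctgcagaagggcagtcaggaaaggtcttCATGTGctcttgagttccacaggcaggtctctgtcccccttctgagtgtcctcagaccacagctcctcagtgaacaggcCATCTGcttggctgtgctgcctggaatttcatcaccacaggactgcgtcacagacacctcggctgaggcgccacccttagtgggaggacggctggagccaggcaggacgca
Mtor, chr4:148448332-148448581: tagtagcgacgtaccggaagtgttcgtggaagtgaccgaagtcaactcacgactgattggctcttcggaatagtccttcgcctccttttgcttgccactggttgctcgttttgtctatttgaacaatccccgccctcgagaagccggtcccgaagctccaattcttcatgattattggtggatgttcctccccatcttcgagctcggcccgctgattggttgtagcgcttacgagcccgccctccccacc
Each of these 2 Akt2 windows holds 2 E-box matches and the Mtor window holds none. Akt2 has 4 start sites in the table, and of the others, not shown, 1 window holds 2 matches and 1 holds none. At least 1 match stands in 66.2% of 32851 mouse promoters of that length, so that a match or its absence is common. Of the 10 genes, 9 were found in the promoter table, with 13 windows (Eif4ebp1 was not found). The FoxO letters are in 3.17% of all promoters and, among the 13 windows, in that of the upstream Akt1 start.

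Mtor (chr4:148448611-148557683, plus strand) encodes the kinase shared by both mTOR complexes. On the sham side it was 10.3, 9.31, and 10.4 TPM at day 1, 15.2, 10.4, and 10.7 TPM at day 3, and 9.31, 9.07, and 8.60 TPM at day 7. On the denervated side it was 13.2, 11.3, and 11.6 TPM at day 1, 18.8, 14.9, and 13.02 TPM at day 3, and 18.9, 11.7, and 16.9 TPM at day 7. Every denervated sample was above every sham sample at days 1 and 7, as was the case for 5.61% and 10.6% of all genes. The sides overlapped at day 3 through sham mouse 1. Mtor passed at no single day, with folds of 1.19, 1.28, and 1.69 and adjusted p values of 0.999, 0.468, and 0.147 (limma). Over all days it was 1.37-fold higher (log2 difference 0.46 ± 0.11 SE, adjusted p = 0.0305, 9 of 9 mice higher). This call was lost, with adjusted p values of 0.0540 to 0.0975, when mouse 2 of day 1, mouse 2 or 3 of day 3, or any mouse of day 7 was left out, while the log2 difference stayed between 0.39 and 0.49 over all 9 such fits. The coding transcript Mtor-202 held 63.7% of the gene sum on average (51.7% to 75.9%). At day 3 it was 8.49, 5.86, and 5.96 TPM on the sham side and 12.03, 10.4, and 9.43 TPM on the denervated side. Its sides did not overlap there, in contrast to the gene sum. At day 1 its sides overlapped (5.77, 6.89, and 6.95 TPM against 6.82, 7.35, and 7.09 TPM), while those of the gene sum did not. The log2 difference at day 1 was 0.11 for Mtor-202 and 0.25 for the gene sum. At day 7 the sides of both were apart. For single transcripts, the share of all transcripts with sides apart was not counted. A retained-intron transcript of 598 bases, Mtor-204, held another 23.2%.

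Rptor (chr11:119602905-119899576, plus strand) and Rictor (chr15:6708379-6800401, plus strand), which encode the scaffold proteins that define mTOR complexes 1 and 2, differed less. Rptor was 6.99, 7.70, and 7.72 TPM on the sham side and 7.85, 7.24, and 7.13 TPM on the denervated side at day 1, and 8.20, 7.30, and 8.37 TPM against 7.29, 9.02, and 9.93 TPM at day 3. Its day 7 values were 9.29, 7.28, and 6.07 TPM on the sham side and 11.7, 10.2, and 7.55 TPM on the denervated side. It was higher in 3 of 3 mice at day 7, as were 24.9% of all genes, but the sides overlapped and the fold of 1.28 did not pass (adjusted p = 0.582). Rictor stayed between 4.15 and 6.52 TPM in all 18 samples, and its folds were 0.958, 1.01, and 1.06. The ratio of Rptor to Rictor was higher on the denervated side in 7 of 9 mice, by 0.15 ± 0.18 on the log2 scale (exact two-sided sign-flip permutation test, p = 0.0547). With 1 mouse left out, the exact p ran from 0.0234 to 0.109. The values under 0.05 came without day 1 mouse 3 or day 3 mouse 1 (0.0234 or 0.0312). Nearly all Rptor signal (91.1%) was assigned to Rptor-211, which the annotation lists as a nonsense-mediated decay transcript, and 98.6% of Rictor signal to the coding Rictor-201. Taken from protein-coding transcripts alone, the difference in the ratio was 0.32 (exact permutation p = 0.258).

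**Figure D3:**
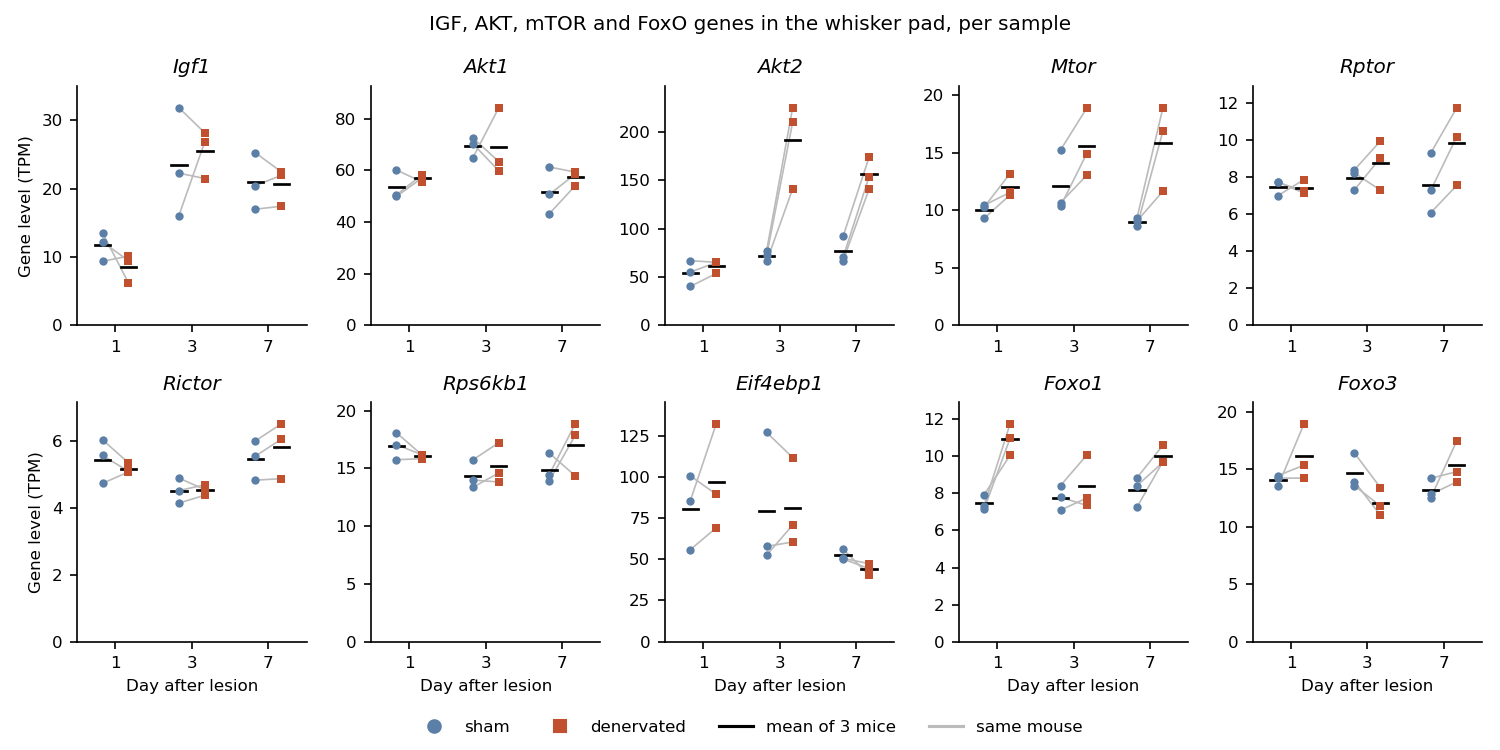
TPM of the 10 genes in each of the 18 samples by day after lesion, on a linear axis from 0 in each panel. Circles are sham and squares denervated samples, gray lines join the sides of a mouse and bars are means of 3 mice. Akt2 parts at days 3 and 7 (141 to 225 TPM against 66.2 to 92.1 TPM), and Igf1 is under 14 TPM in all samples of day 1 and at least 16.1 TPM later.

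The outputs of mTOR complex 1 did not pass the test at any day. Rps6kb1 (chr11:86498871-86544805, minus strand), the gene of S6 kinase 1, was 17.1, 15.8, and 18.1 TPM on the sham side and 16.2, 15.8, and 16.1 TPM on the denervated side at day 1, and between 13.4 and 18.9 TPM in all samples of days 3 and 7. Its sides overlapped at each day, with folds of 0.948, 1.06, and 1.13 and adjusted p values of at least 0.684. Eif4ebp1 (chr8:27260329-27276674, plus strand) encodes 4E-BP1, the repressor of cap-dependent translation that mTOR complex 1 inactivates. It was 55.8, 85.4, and 101 TPM on the sham side and 69.1, 132, and 89.5 TPM on the denervated side at day 1, and 127, 52.5, and 57.9 TPM against 112, 70.8, and 60.5 TPM at day 3. By day 7 it was at 56.1, 50.2, and 50.6 TPM on the sham side and 40.4, 44.3, and 47.3 TPM on the denervated side. Only at day 7 were all 3 denervated samples below the sham samples, as for 7.06% of all genes, at a fold of 0.842 that did not pass (adjusted p = 0.451). Its values spread widely between mice at days 1 and 3 and little at day 7, with a sham SD of 22.8, 41.6, and 3.32 TPM at the 3 days. In the comparison of days, Eif4ebp1 on the denervated side fell by 1.08 on the log2 scale from day 1 to day 7 (limma, adjusted p = 0.0306, where 8.04% of all genes passed as lower), and the sham value was -0.58 (adjusted p = 0.366). The difference between the sides in this change was -0.50 and did not pass (adjusted p = 0.866). Of its signal, 85.7% was assigned to Eif4ebp1-202, annotated as a processed transcript without a coding sequence.

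Foxo1 (chr3:52268336-52353221, plus strand) and Foxo3 (chr10:42181841-42276755, minus strand) encode the FoxO factors best known for the atrophy program of skeletal muscle. Foxo1 was 7.93, 7.15, and 7.34 TPM on the sham side and 10.1, 10.98, and 11.8 TPM on the denervated side at day 1. At day 3 it was 8.43, 7.79, and 7.10 TPM against 10.1, 7.36, and 7.74 TPM, and at day 7 7.25, 8.42, and 8.84 TPM against 9.72, 9.68, and 10.6 TPM. The sides did not overlap at days 1 and 7, a pattern above the sham side that 5.61% and 10.6% of all genes had, and they overlapped at day 3. The folds were 1.43 at day 1 (adjusted p = 0.802), 1.07 at day 3 (0.840), and 1.21 at day 7 (0.440). Over all days Foxo1 was 1.23-fold higher (log2 difference 0.30 ± 0.08 SE, limma, adjusted p = 0.0471, 8 of 9 mice), close to the threshold. The call was lost with the mouse as a block (adjusted p = 0.0708) and in 8 of the 9 fits that left out a mouse (0.0604 to 0.142), all but that without day 3 mouse 2 (0.0403), with log2 differences of 0.25 to 0.34.

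Foxo3 was 13.5, 14.2, and 14.4 TPM on the sham side and 18.9, 14.2, and 15.3 TPM on the denervated side at day 1. At day 3 it was 16.4, 13.9, and 13.6 TPM against 13.4, 10.99, and 11.8 TPM, with every denervated sample below every sham sample, as for 9.82% of all genes. The day 7 values were 12.5, 12.8, and 14.2 TPM against 17.5, 13.9, and 14.8 TPM, and the sides overlapped. None of these differences passed (folds 1.137, 0.830, and 1.16, adjusted p values 0.999, 0.377, and 0.590). The difference between days 7 and 3 was 0.48 on the log2 scale and did not pass either (limma interaction, adjusted p = 0.652, 0% of all genes passed). On the denervated side alone, Foxo3 was lower at day 3 than at day 1 (0.757-fold, limma, adjusted p = 0.0495, where 3% of all genes passed as lower). The ratio of Foxo1 to Foxo3 was higher on the denervated side in 7 of 9 mice, by 0.25 ± 0.27 on the log2 scale (exact two-sided sign-flip permutation test, p = 0.0273). The mean ratio went from 0.533 to 0.690 at day 1, from 0.532 to 0.692 at day 3, and from 0.620 to 0.657 at day 7. Leaving out mouse 2 or 3 of day 1 or any mouse of day 3 gave an exact p of 0.0547.

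By level in the 9 sham samples, the 10 genes fell into groups. Eif4ebp1 (70.7 ± 27.5 TPM, SD), Akt2 (67.6 ± 14.3 TPM) and Akt1 (58.2 ± 10.1 TPM) were highest, with overlapping ranges. Igf1 (18.7 ± 7.05 TPM), Rps6kb1 (15.4 ± 1.60 TPM) and Foxo3 (13.95 ± 1.12 TPM) followed, and each overlapped its neighbor. Foxo3 exceeded Mtor (10.4 ± 1.97 TPM) in 9 of 9 samples although the ranges met, and Mtor exceeded Foxo1 (7.81 ± 0.64 TPM) in 8 of 9. Foxo1 and Rptor (7.66 ± 0.92 TPM) could not be ordered, and Rictor was lowest (5.15 ± 0.67 TPM), under Rptor in every sample. This order pools the days and differs between them: mean sham Igf1 was 11.7 TPM at day 1, under Rps6kb1 (16.98 TPM) and Foxo3 (14.1 TPM), and Eif4ebp1 exceeded Akt2 at day 1 (80.7 against 54.1 TPM) and was under it at day 7 (52.3 against 76.5 TPM).

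The genes whose 9 within-mouse differences lay closest to those of Akt2 were Galns, a lysosomal sulfatase, Rras2, a Ras-family GTPase, and Cd82, a tetraspanin, at root mean square distances of 0.21, 0.22, and 0.24 on the log2 scale. Galns had mean differences of 0.17, 1.09, and 1.11 at days 1, 3, and 7, Rras2 of -0.12, 1.44, and 1.03, and Cd82 of 0.39, 1.25, and 0.79. Genes close to Mtor were Ugcg, the glucosylceramide synthase, and Ipp, at distances of 0.16 and 0.17. Ugcg had mean differences of 0.19, 0.47, and 0.78 at the 3 days, which like those of Mtor are all positive. The likeness is a description over 9 mice and was searched among 14757 genes.

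Of 90 other genes of the pathway, listed by role, few passed. At day 1, 0 of 88 tested passed, and 5 were under 0.05 before adjustment. At day 3, 2 of 89 passed (2.25%), at day 7 3 of 90 (3.33%), and over all days 5 of 89 (5.62%), beside 1.45%, 1.53%, and 3.1% of all genes. Their median log2 differences were -0.010, -0.016, and 0.090 at the 3 days and -0.00071 over all days, close to the medians of all genes. The ligands and receptors gave 2 genes that rose. Igfbp5, the binding protein that holds IGFs in the matrix, was 181, 175, and 169 TPM on the sham side and 359, 309.8, and 308 TPM on the denervated side at day 7 (1.85-fold, limma, adjusted p = 0.0139, 3 of 3 mice). Igf2r, the receptor that clears IGF2, was 8.35, 7.91, and 7.49 TPM against 18.7, 14.5, and 12.6 TPM at day 7 and passed over all days (1.42-fold, adjusted p = 0.0122). Grb14, an adaptor that inhibits the insulin receptor, was 87.9, 102, and 60.3 TPM on the sham side and 43.9, 44.3, and 35.5 TPM on the denervated side at day 7, and it passed over all days (0.490-fold, adjusted p = 0.00521). For each of these 3 genes the sides were apart at day 7. Among all genes, 10.6% lay apart above the sham side at day 7, like Igfbp5 and Igf2r, and 7.06% below it, like Grb14. Fits without 1 mouse of day 7 gave adjusted p values of 0.0865 to 0.272 for Igfbp5, which also missed the threshold in 1 fit of all 18 samples (0.258) and with muscle marker scaling (0.0891). Over all days, Igf2r was lost without day 3 mouse 3 or day 7 mouse 2 (up to 0.0554), and Grb14 passed without any 1 mouse (up to 0.0231). With muscle marker scaling, neither Igf2r nor Grb14 passed over all days (limma, adjusted p = 0.930 and 0.0565). The IGF1 receptor gene Igf1r had folds of 1.196, 0.948, and 1.10 and did not pass at any day.

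**Figure D4:**
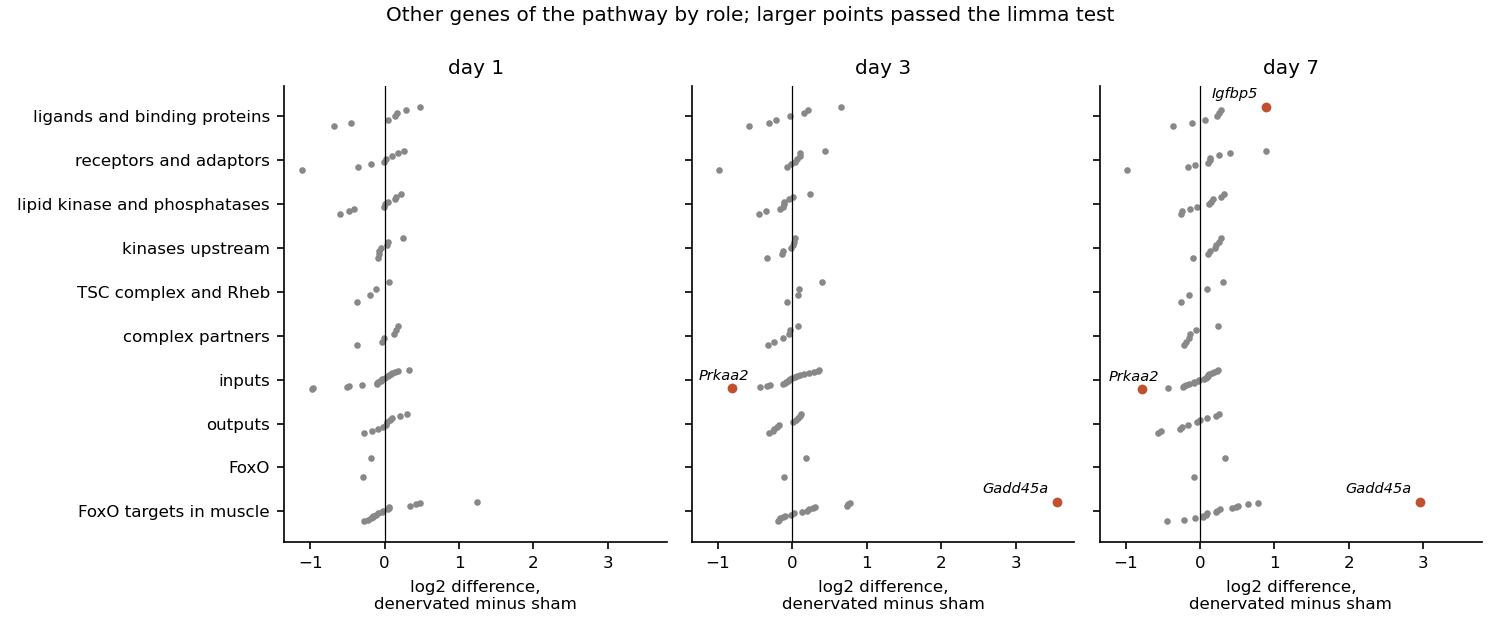
Log2 differences, denervated minus sham, of the 90 other pathway genes by role at days 1, 3, and 7. Each point is a gene fitted over 6 samples, and the large named points passed the limma test. Gadd45a stands at 3.56 and 2.96 at days 3 and 7, Igfbp5 at 0.89 at day 7, and Prkaa2 at -0.81 and -0.78. Other points that far from 0, such as Grb14 at -1.11, -0.99, and -0.98 at the 3 days, did not pass in these fits without the block.

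Among 20 inputs to mTOR complex 1, 0 rose, and Prkaa2 was the 1 that fell without the block. Among all genes, the blocked fits passed 217 of 14943 at day 3 and 517 of 14757 over all days. In the blocked fits, Sesn1, a sestrin of the stress response, was also lower over all days (0.752-fold, adjusted p = 0.00426, and 0.0762 without the block), as was Ddit4l, an inhibitor of mTOR complex 1, at day 3 (0.568-fold, adjusted p = 0.0335, and 0.340 without it). Prkaa2, the catalytic AMPK subunit prominent in muscle, was 8.63, 8.58, and 7.27 TPM on the sham side and 4.99, 3.97, and 4.35 TPM on the denervated side at day 3, and 10.8, 11.1, and 10.1 TPM against 6.41, 5.14, and 6.501 TPM at day 7. The denervated samples were all below the sham samples at both days, as for 9.82% (day 3) and 7.06% (day 7) of all genes. The folds of 0.569 (limma, adjusted p = 0.0459) and 0.582 (adjusted p = 0.0490) passed narrowly. Both missed the threshold in the blocked fits (0.0690 and 0.0680) and without any 1 mouse of the day (0.133 to 0.501). Over all days Prkaa2 was 0.554-fold (limma, adjusted p = 0.00680) and passed without any 1 mouse (up to 0.0334). With muscle marker scaling it missed the threshold at day 3 (0.347), at day 7 (0.224), and over all days (0.216). In 1 fit of all 18 samples it also missed the threshold at days 3 and 7 (0.226 and 0.258). None of the 9 lipid kinase and phosphatase genes, 7 upstream kinases and regulators, 4 TSC and Rheb genes, 6 complex partners or 10 outputs passed at any day or over all days.

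Of 16 FoxO targets in muscle, 1 passed at day 3 and 1 at day 7, and it was the same gene, Gadd45a. Gadd45a, a stress-response gene that is also linked to denervation atrophy, was 38.3, 35.1, and 33.99 TPM on the sham side and 441, 523, and 336 TPM on the denervated side at day 3, and 47.3, 32.5, and 32.3 TPM against 243, 319.6, and 314 TPM at day 7. It rose 11.8-fold (limma, adjusted p = 0.000743) and 7.79-fold (adjusted p = 0.00228), with denervated values far above every sham value. All denervated samples stood above all sham samples in 11.7% and 10.6% of all genes at these days. Leaving out mouse 3 of day 3 (adjusted p = 0.0647) or mouse 1 or 2 of day 7 (up to 0.0974) ended these calls, while over all days Gadd45a was 6.01-fold higher (adjusted p = 0.000213) and passed without any 1 mouse (up to 0.00237). At day 1 it was 28.8, 30.8, and 40.96 TPM against 37.2, 176, and 75.0 TPM, where the sides overlapped (adjusted p = 0.999). Bcl6, a transcriptional repressor, passed over all days (1.39-fold, adjusted p = 0.0268), but not with the block (0.0568) or without any 1 mouse of day 3 or 7 (up to 0.101). The ubiquitin ligase genes of atrophy did not pass without the block. With the block, 217 of 14943 genes tested passed at day 3, 328 of 15081 at day 7, and 517 of 14757 over all days. Trim63 (MuRF1) had folds of 1.39, 1.72, and 1.35 (adjusted p = 0.999, 0.652, and 0.266), and with the block it passed at day 3 (adjusted p = 0.0331) and over all days (0.0363). Fbxo32 (atrogin-1) had folds of 0.922, 1.66, and 1.17 and did not pass with or without it. Also only with the block, Ctsl, the lysosomal protease cathepsin L, passed at day 7 (1.72-fold, adjusted p = 0.0332, and 0.148 without it), and Map1lc3b, an autophagosome protein gene, passed over all days (1.29-fold, adjusted p = 0.0254, and 0.286 without it).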

How the data were processed

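RNA was sequenced from 18 whisker pad biopsies of 9 mice. The authors made TruSeq libraries, ran them on an Illumina NextSeq, converted the run with bcl2fastq 2.17.1.14, removed duplicate reads and adapters, and quantified transcripts of GRCm38 with Kallisto 0.43.1 and Sleuth. The deposited table is a normalized signal: TPM rescaled between libraries by the authors, so that sums differ (833186 to 1143839). Tests meant for plain TPM were kept. The columns of day 7 carry other mouse numbers than the sample titles and were matched by day, side, and library number, which pairs the sides by the titles. The mouse numbers of day 7 used here only name the mice, in the order of the sample records.

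Transcript identifiers were matched to GENCODE M21 (98.46% of 113194, holding 99.48% of all values), and TPM were summed into 35150 genes. Depth came from low values of long transcripts in single-transcript genes, 74.9% to 82.5% of which lay within 0.1 reads of a whole number of reads (20% by chance). A gene was tested where 47% or more of the libraries compared had at least 1 TPM. Differences came from limma 3.58.1 (R 4.3.3) fitted to log2(TPM + 0.5), trend on, with p adjusted over every gene tested (Benjamini and Hochberg) at 0.05. Folds are on this scale and understate the change of low genes. Each day had a fit of its own 6 samples, and all 18 were fitted with terms for day and lesion. Interactions and comparisons of days within a side came from a fit of 6 groups, and comparisons of days, which set different mice against each other, were added after the data were seen. Both sides of a mouse come from 1 animal and their deviations from the group means correlated at 0.13 to 0.51 in every pair, so a fit with the mouse as block was an alternative. Sign-flip tests over 9 mice are exact, two-sided, and unadjusted. The 3 ratios and the main-transcript shares of 9 genes were tested without adjustment. The code was tested on simulated data.

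The 10 genes, the 90 other pathway genes by role, and the marker lists were chosen with earlier results of these data known. Named are all 10 genes, the other pathway genes that passed, and the 3 genes nearest to each of the 2 members with the largest mean absolute difference, of which 1 is not reported here. Beyond that rule, Igf1r, Trim63, Fbxo32, Sesn1, Ddit4l, Ctsl, Map1lc3b, Ckm, Cdh15, Pax7, and Myf5 were picked with their values known. As alternatives, pseudocounts were set to 0.1 or 1, the minimum to any TPM above 0 or to 5, scaling to median ratios, equal sums, or muscle markers, and the model to the block, no trend, or 1 fit for all samples. Genes were also taken as their top transcript or their protein-coding transcripts, and each mouse was left out. Promoters are from RefSeq. The remaining steps ran in Python 3.11.15 (numpy 2.4.6; pandas 2.3.3; scipy 1.17.1; matplotlib 3.10.9).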

Additional observations from a re-analysis of the deposited data

Results flagged for a closer look

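Among the 10 genes, Foxo3 moved one way in all mice of 1 day and the other way in all mice of another. This pattern was searched for in each gene of the list and each pair of days. Such a search can return a gene by chance with 3 mice per day, and the share of all genes with the pattern was not counted. The mean log2 difference of Foxo3 between the denervated and the sham side was -0.27 at day 3, with 3 of 3 mice lower, and 0.21 at day 7, with 3 of 3 mice higher. The interaction between these days was 0.48 and did not pass the limma test (adjusted p = 0.652, or 0.341 in the blocked fit). With 3 mice in a group, single samples were not tested for standing apart.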

How the results depend on the processing

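The limits lie in 3 mice per day, in tissue of mixed cell types, and in day 1 mouse 1, whose biopsies held the least muscle RNA. Akt2 passed at day 3 under all 12 other settings that kept every mouse (adjusted p 0.00115 to 0.0499). At day 7 it passed under 11 of 12 (0.0144 to 0.0523), and median-of-ratios scaling left 0 of the 10 genes past the test (log2 difference 0.99). With 1 mouse left out, 0 to 1 genes passed at day 3 and 0 at day 7, 1 to 2 over all days, and 3 to 4 in the sign-flip test. At day 1, 0 genes passed under every setting. Scaling to muscle markers moved the median of all genes by 0.14 at day 1 and 0.22 at day 3 on the log2 scale. Over all days it left 0 of 10 genes past the test, with log2 differences of 1.01 for Akt2, 0.58 for Mtor, and 0.42 for Foxo1, and Foxo1 then had an exact p of 0.0508 in the sign-flip permutation test. Foxo1 over all days was also lost with a TPM above 0 as the minimum (adjusted p = 0.0700), with equal sums (0.126), median-of-ratios scaling (0.0558), no trend (0.0504), and the top transcript (0.0601). The number of genes whose difference changed between days was 0, 1 (Akt2, day 3 against day 1) with the replicate block, and 0 to 1 with a mouse left out.

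The mouse as a block changed no call of the 10 genes beyond Foxo1 over all days and this interaction. Of the wider pathway, the count at day 3 was 1 with a TPM above 0 or equal sums and 0 to 1 without a mouse. At day 7 it was 1 with muscle marker scaling, 5 with the block, and 0 to 1 without a mouse. Over all days it was 1, 8, and 3 to 8. Among all genes, the block passed 328 of 15081 at day 7 and 517 of 14757 over all days, against 230 and 457 without it. Gadd45a passed over all days with muscle marker scaling, with the block, and without any 1 mouse. The cause of the changed counts was not tested, except that a fit without a mouse has fewer samples.

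The Akt1 to Akt2 log2 ratio ran from -0.89 to -0.68 without a mouse, that of Foxo1 to Foxo3 from 0.21 to 0.30, and that of Rptor to Rictor from 0.12 to 0.19. With protein-coding transcripts, the last was 0.32. The share of the main transcript did not pass for any gene, and the sign of its mean difference changed without a mouse for Mtor (-0.91 to 3.17 percentage points), Rps6kb1 (-2.18 to 1.62), and Eif4ebp1 (-0.66 to 0.56). Differences that did not pass also changed sign. With muscle marker scaling, day 1 gave 0.11 for Rptor, 0.048 for Rictor, and 0.057 for Rps6kb1, day 3 gave 0.20 for Akt1, day 7 0.035 for Igf1, and all days 0.037 for Igf1. Rictor was -0.045 at day 3 and -0.0038 over all days with equal sums and -0.0016 over all days with median-of-ratios scaling. With the top transcript, Akt1 was 0.036 at day 3 and -0.027 at day 7 and Igf1 0.12 at day 7, and with protein-coding transcripts Akt1 was 0.025 at day 3. Leaving out a mouse gave -0.10 to 0.036 for Rptor at day 1, and at day 3 -0.11 to 0.34 for Igf1, -0.21 to 0.091 for Akt1, -0.024 to 0.060 for Rictor, and -0.060 to 0.24 for Eif4ebp1. At day 7 it gave -0.066 to 0.067 for Igf1. Over all days it gave -0.20 to 0.028 for Igf1, -0.0051 to 0.029 for Rictor, -0.038 to 0.10 for Eif4ebp1, and -0.011 to 0.089 for Foxo3.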
